A study of Mus musculus with 24 samples.

Results

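10 immediate early genes, those that encode the AP-1 proteins Fos, Fosb, Jun, Junb and Jund, the related bZIP factor Atf3, the transcription factors Egr1 and Nr4a1, the nuclear protein Ier2 and the RNA-binding protein Zfp36, were followed in leukaemia cells of mouse spleens. They were taken by symbol, 10 rows of the 23361 in the table of FPKM (fragments per kilobase of transcript and per library size), and all 10 had values above the level at which the table lists a 0 in each of the 24 libraries. The labels call the cells AML cells (acute myeloid leukaemia) with the genotype NRASG12V/Mll-AF9, an activated NRAS together with a fusion of Mll and AF9, in (FVB/n X C57/BL/6J) F1 mice, and every group shares that genotype and strain. The groups were sorted MacLowKit+Sca1+ cells (4 libraries), MacLowKit+Sca1- cells (5), MacLowKit-Sca1- cells (5) and MacHigh cells (5), set apart by Mac-1, Kit and Sca-1 at the surface, and unsorted cells (5). The labels give no treatment, no age and no promoter that drives either transgene. Nothing in them says that libraries of a group came from separate mice, so the p-values cover the spread among these libraries alone, and that spread may be technical.

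Immediate early genes are transcribed within minutes of a stimulus, without new protein synthesis, when RAS-ERK, p38, JNK or calcium signals reach factors such as SRF with its ELK partners and CREB that already sit at their promoters. Their mRNAs are short-lived, and many of their products are DNA-binding proteins: Fos and Jun proteins pair through leucine zippers to form AP-1, and Jun proteins can also pair among themselves. In myeloid cells these genes are known for their response to growth factors, adhesion and bacterial products, and for their response to tissue dissociation and cell handling.

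The promoters of 8 of the 10 genes were matched by symbol in the RefSeq promoter table (GRCm38.p6). The 150 bases before the RefSeq start of 6 of them are shown because they hold the letters TGACG, the core of the CREB and ATF site, or GCGGGGGCG, a site that Egr1 is known to bind. Both were searched on both strands and are in capitals, and they do not overlap in these windows. The regions are chr12:85473740-85473889 (plus strand) for Fos, chr7:19310046-19310195 (minus) for Fosb, chr8:84978749-84978898 (minus) for Junb, chr1:191183334-191183483 (minus) for Atf3, chr15:101266696-101266845 (plus) for Nr4a1 and chr7:28379229-28379378 (minus) for Zfp36, each printed 5′ to 3′ on the strand of the gene.
Fos: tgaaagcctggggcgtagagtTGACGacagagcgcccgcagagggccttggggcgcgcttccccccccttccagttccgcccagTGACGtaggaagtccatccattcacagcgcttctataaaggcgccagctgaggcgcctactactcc
Fosb: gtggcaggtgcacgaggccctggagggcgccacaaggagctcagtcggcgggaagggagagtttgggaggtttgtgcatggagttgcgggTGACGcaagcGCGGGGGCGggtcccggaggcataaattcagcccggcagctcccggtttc
Junb: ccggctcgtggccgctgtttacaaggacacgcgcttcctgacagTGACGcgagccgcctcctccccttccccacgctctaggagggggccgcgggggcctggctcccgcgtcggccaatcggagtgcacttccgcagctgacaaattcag
Atf3: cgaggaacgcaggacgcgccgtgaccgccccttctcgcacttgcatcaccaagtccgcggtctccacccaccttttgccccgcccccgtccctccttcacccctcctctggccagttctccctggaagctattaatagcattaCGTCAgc
Nr4a1: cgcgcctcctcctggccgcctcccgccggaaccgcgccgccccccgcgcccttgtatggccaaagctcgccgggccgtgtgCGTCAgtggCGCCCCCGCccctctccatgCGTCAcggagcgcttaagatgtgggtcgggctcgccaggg
Zfp36: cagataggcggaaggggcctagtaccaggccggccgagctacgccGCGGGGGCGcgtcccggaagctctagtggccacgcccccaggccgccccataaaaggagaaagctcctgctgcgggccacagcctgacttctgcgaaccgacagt
TGACG was in 5 of the 8 promoters, those of Fos, Fosb, Junb, Atf3 and Nr4a1, and in 13.3% of all 32851 promoters of the table in windows of the same length. GCGGGGGCG was in 3 of the 8, those of Fosb, Nr4a1 and Zfp36, and in 2.09% of all. The AP-1 site TGANTCA was in none of the 8 windows and in 4.24% of all. These counts rest on the RefSeq starts, which differ in part from the gene positions given below. The Jund window, chr8:70697589-70697738, does not adjoin the Jund position given below. The windows of Atf3, Nr4a1 and Zfp36 lie inside the positions given for those genes.

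FPKM sums lay between 446000 and 644400 per library, and a relative depth estimated from low values lay between 0.8 and 1.98 times the median library. The number of reads is unknown, so no counting error can be given. Itgam, which encodes the alpha chain of Mac-1, was highest in MacHigh cells (582 to 693 FPKM, against 39.2 to 98.0 in MacLowKit+Sca1+ cells). Kit was at 26.8 to 43.6 FPKM in MacLowKit+Sca1+ cells, 31.7 to 54.1 in MacLowKit+Sca1- cells and 5.22 to 7.17 in MacHigh cells. Ly6a, which encodes Sca-1, was at 5.64 to 9.75 FPKM in MacLowKit+Sca1+ cells and at most 3.46 FPKM elsewhere. The pan-leukocyte and myeloid genes Itgb2 and Ptprc were detected in every group. The pattern of the 10 genes had 2 parts, a difference between groups and a difference between the sets of libraries that share a prefix of the sample name (11, 12, 26, L, N or R). Each prefix has at most 1 library in a group, and what a prefix stands for is not stated. Values are given below in the order of these prefixes, as far as a group has them.

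Fos (chr12:85473890-85477273, 4 exons) dimerises only with partners such as the Jun proteins, and it was among the most variable of the 10 genes. It stood at 112, 46.4, 23.4 and 161 FPKM in MacLowKit+Sca1+ cells and at 27.1, 6.03, 28.9, 14.3 and 40.7 FPKM in MacLowKit+Sca1- cells. It stood at 55.9, 14.5, 17.3, 59.5 and 107 FPKM in MacLowKit-Sca1- cells, 84.5, 33.8, 170.2, 75.0 and 214 FPKM in MacHigh cells and 37.2, 13.2, 96.6, 48.1 and 82.0 FPKM in unsorted cells. The libraries of each group lay far apart and all 5 groups overlapped, with the lowest mean in MacLowKit+Sca1- cells (23.4 ± 13.5 FPKM) and the highest in MacHigh cells (116 ± 74.1 FPKM). Fosb (chr7:19302696-19310051), a paralogue of Fos, was far lower, with ranges of 1.39 to 14.6 FPKM in MacLowKit+Sca1+ cells, 0.184 to 5.19 in MacLowKit+Sca1- cells, 0.391 to 6.58 in MacLowKit-Sca1- cells, 0.685 to 7.60 in MacHigh cells and 0.532 to 4.97 in unsorted cells. Its group ranges all overlapped, and in the fit of the groups alone it was called in none of the 10 comparisons.

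Of the Jun proteins, Jun is the strong activator, Junb is often antagonistic to it, and Jund is made at a steadier level. Jun (chr4:95049034-95052222, 1 exon, overlapped by the antisense gene Junos) stood at 71.4, 27.4, 15.7 and 66.6 FPKM in MacLowKit+Sca1+ cells and 18.8, 1.56, 11.9, 7.27 and 24.3 FPKM in MacLowKit+Sca1- cells. It stood at 60.2, 12.8, 12.3, 34.1 and 45.3 FPKM in MacLowKit-Sca1- cells, 55.1, 38.3, 56.2, 53.6 and 89.2 FPKM in MacHigh cells and 24.1, 11.1, 35.5, 33.7 and 33.4 FPKM in unsorted cells. All MacHigh libraries lay above all MacLowKit+Sca1- libraries and all unsorted ones, while the MacLowKit+Sca1+ and MacLowKit-Sca1- ranges overlapped the unsorted one. Junb (chr8:84974484-84978718, 1 exon, overlapping Prdx2 on the other strand) was the highest of the Jun genes in every group by mean FPKM, with 131, 80.0, 87.3 and 140.4 FPKM in MacLowKit+Sca1+ cells and 37.9, 17.9, 34.0, 25.9 and 47.8 FPKM in MacLowKit+Sca1- cells. It had 111, 42.2, 61.7, 65.9 and 105 FPKM in MacLowKit-Sca1- cells, 179.8, 101, 138, 129 and 195 FPKM in MacHigh cells and 55.2, 48.8, 84.9, 72.4 and 82.9 FPKM in unsorted cells. The MacLowKit+Sca1- libraries were below every MacLowKit+Sca1+, MacHigh and unsorted library. Jund (chr8:70698949-70700616, 1 exon, overlapped by the antisense gene Gm11175) stood at 52.9, 59.5, 50.2 and 66.5 FPKM in MacLowKit+Sca1+ cells, close together, and at 12.8, 5.93, 11.0, 9.81 and 21.0 FPKM in MacLowKit+Sca1- cells. It stood at 36.9, 21.4, 22.8, 25.3 and 38.8 FPKM in MacLowKit-Sca1- cells, 47.5, 40.1, 43.7, 66.3 and 60.5 FPKM in MacHigh cells and 29.5, 21.0, 30.4, 41.1 and 33.8 FPKM in unsorted cells. It was 1 of 2 members, with Fosb, whose mean was highest in MacLowKit+Sca1+ cells, and its MacLowKit+Sca1+ range lay above those of MacLowKit+Sca1-, MacLowKit-Sca1- and unsorted cells and overlapped that of MacHigh cells. Use of strand in the counting is not stated, so reads of a gene and of its overlapping partner cannot be told apart.

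Atf3, a bZIP factor that stress induces and that can pair with Jun proteins, had the widest range of the 10 genes (chr1:191170296-191218039, 4 exons, overlapped by the misc_RNA gene Gm24748). It stood at 6.50, 4.74, 4.80 and 8.40 FPKM in MacLowKit+Sca1+ cells and at 0.229, 0.185, 0.299, 0.292 and 0.799 FPKM in MacLowKit+Sca1- cells. It stood at 2.84, 1.49, 2.72, 0.774 and 5.35 FPKM in MacLowKit-Sca1- cells, 8.51, 12.3, 13.2, 16.2 and 21.3 FPKM in MacHigh cells and 5.27, 4.46, 5.70, 6.66 and 5.12 FPKM in unsorted cells. Every MacHigh library was above every library of the other groups, and the MacLowKit+Sca1- libraries were all under 1 FPKM.

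Egr1 (chr18:34859823-34864984, 2 to 3 exons), a zinc finger factor that activates and limits other early genes, ranged over 4.58 to 10.9 FPKM in MacLowKit+Sca1+ cells, 0.457 to 3.70 in MacLowKit+Sca1- cells, 2.20 to 17.1 in MacLowKit-Sca1- cells, 8.10 to 25.2 in MacHigh cells and 3.84 to 15.0 in unsorted cells. The MacLowKit+Sca1- range lay below those of MacLowKit+Sca1+, MacHigh and unsorted cells. Nr4a1 (chr15:101254269-101274795, 7 to 8 exons), the orphan nuclear receptor Nur77, stood at 15.4, 16.4, 9.24 and 39.6 FPKM in MacLowKit+Sca1+ cells and 4.98, 3.43, 2.78, 4.54 and 12.6 FPKM in MacLowKit+Sca1- cells. It stood at 21.7, 12.8, 20.9, 10.8 and 52.1 FPKM in MacLowKit-Sca1- cells, 61.7, 45.6, 37.8, 52.1 and 63.4 FPKM in MacHigh cells and 18.2, 18.9, 26.4, 22.4 and 33.9 FPKM in unsorted cells. All MacHigh libraries were above all unsorted ones and all MacLowKit+Sca1- ones, and the R library was the highest of each MacLow group.

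Ier2 (chr8:84661331-84662852, 1 exon), a small nuclear protein, was the least variable member, with 44.4 to 131 FPKM over the 24 libraries. Its lowest mean was in MacLowKit+Sca1+ cells (58.2 ± 15.8 FPKM), against 78.8 ± 26.0 FPKM in MacLowKit+Sca1- cells, 86.1 ± 22.6 FPKM in MacLowKit-Sca1- cells, 103 ± 23.8 FPKM in MacHigh cells and 73.7 ± 9.1 FPKM in unsorted cells. Its group ranges all overlapped. Zfp36 (chr7:28376784-28380253, 1 to 2 exons, overlapped by the antisense gene Gm44710) encodes tristetraprolin, which binds AU-rich elements and speeds the decay of early and cytokine mRNAs. It was the highest of the 10 by mean FPKM in MacLowKit+Sca1+, MacLowKit-Sca1-, MacHigh and unsorted cells. It had 78.6 to 316 FPKM in MacLowKit+Sca1+ cells, 36.5 to 149.9 in MacLowKit+Sca1- cells, 65.1 to 266 in MacLowKit-Sca1- cells, 135 to 508 in MacHigh cells and 65.7 to 216 in unsorted cells. Here too each group's range overlapped that of the others. By mean FPKM MacHigh cells came first for 8 of the 10 genes and MacLowKit+Sca1- cells last for 9, all but Ier2.

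**Figure D1:**
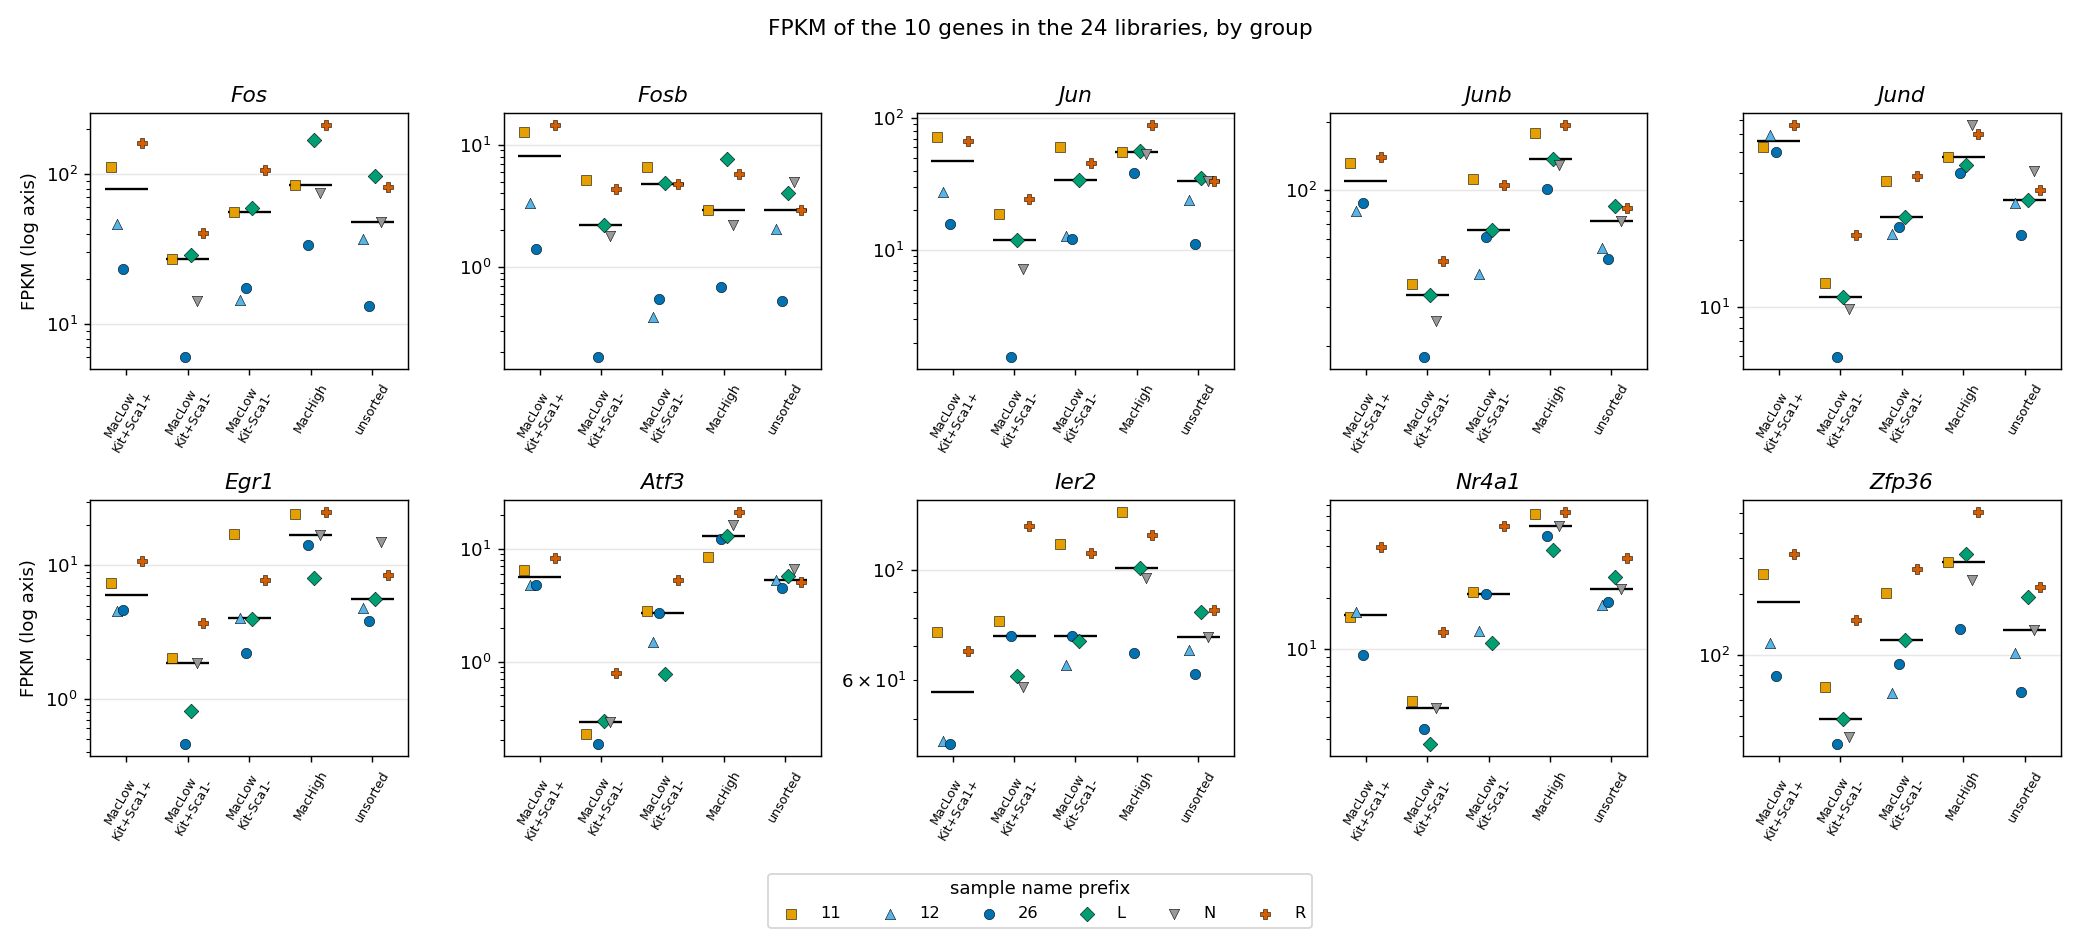
FPKM of the 10 genes (log axis) in each of the 24 libraries, by group, with the colour and shape of a point giving the sample name prefix and a bar at the median of the group. MacLowKit+Sca1- libraries are lowest for 9 genes by mean. Within a group the R libraries mostly lie near the top and the 26 libraries mostly near the bottom.

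A comparison of groups asked which of the 10 genes differed on the scale of log2(FPKM + 1). 1 linear model was fitted to all 11599 rows that had 1 FPKM or more in at least 4 libraries, and a gene was called at a Benjamini-Hochberg adjusted p under 0.05 over all these rows. The differences understate the change of genes under a few FPKM, such as Atf3 in MacLowKit+Sca1- cells. Among the 4 sorted groups 9 of the 10 genes differed, all but Fosb (moderated F test, adjusted p = 0.385), but so did 83.2% of all rows, so that this count says little about the 10 genes. Fewer cells of a type and less RNA per cell cannot be told apart in such samples.

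By the median over the 10 genes the largest differences lay between the MacLowKit+Sca1- cells and the MacHigh cells. 8 of the 10 genes were lower in MacLowKit+Sca1- cells, all but Fosb and Ier2, while 30.3% of all rows were called lower. The groups did not overlap for 6 of them (Jun, Junb, Jund, Atf3, Egr1 and Nr4a1; 23.1% of all rows lay lower without overlap and 21.9% higher). The median of the 10 log2 differences was -2.20, beside 0.03 over all rows. Atf3 averaged 0.361 ± 0.25 FPKM in MacLowKit+Sca1- cells and 14.3 ± 4.8 FPKM in MacHigh cells (log2 difference -3.45 ± 0.26, adjusted p = 8.93e-11; SD, n = 5 each). Nr4a1 averaged 5.67 ± 4.0 FPKM in MacLowKit+Sca1- cells and 52.1 ± 10.8 FPKM in MacHigh cells (log2 difference -3.13 ± 0.38, adjusted p = 2.06e-07). Egr1 averaged 1.77 ± 1.3 FPKM in MacLowKit+Sca1- cells and 17.7 ± 7.1 FPKM in MacHigh cells (log2 difference -2.78 ± 0.42, adjusted p = 5.1e-06). The AP-1 genes followed with -2.43 ± 0.55 for Jun, -2.22 ± 0.65 for Fos, -2.18 ± 0.27 for Junb and -2.08 ± 0.23 for Jund. Their adjusted p-values ran from 7.41e-08 for Jund to 0.00529 for Fos, and Zfp36 differed by -2.17 ± 0.46 (adjusted p = 0.000313). Fosb differed by -0.36 ± 0.60 (adjusted p = 0.622) and Ier2 by -0.40 ± 0.21 (adjusted p = 0.102).

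MacLowKit+Sca1+ cells lay between, and the members parted. 4 genes were lower than in MacHigh cells, while 22.4% of all rows were. Nr4a1 averaged 20.2 ± 13.3 FPKM in the 4 MacLowKit+Sca1+ libraries and 52.1 ± 10.8 FPKM in the 5 MacHigh libraries (log2 difference -1.49 ± 0.40, adjusted p = 0.00413). The others were Egr1 (log2 difference -1.22 ± 0.45, adjusted p = 0.0291), Atf3 (log2 difference -1.08 ± 0.27, adjusted p = 0.00238) and Ier2 (log2 difference -0.81 ± 0.22, adjusted p = 0.00456). For Atf3 the groups did not overlap (19.0% of all rows lay lower without overlap). None of the 5 AP-1 genes was called in the fit of the groups alone. The log2 differences were -0.51 ± 0.69 for Fos, -0.55 ± 0.58 for Jun, -0.44 ± 0.29 for Junb, 0.17 ± 0.25 for Jund and 0.73 ± 0.64 for Fosb. Their adjusted p-values were 0.223 to 0.618, and Zfp36 differed by -0.72 ± 0.49 (adjusted p = 0.243). For none of these 6 genes does the missed threshold show that the groups were alike. The median of the 10 was -0.64, beside 0.03 over all rows. The call of Egr1 was lost without any 1 of 4 libraries, MacHigh replicate 1 or 5 or MacLowKit+Sca1+ replicate 2 or 3 (adjusted p = 0.067 to 0.0849). With the name prefix as a block Fosb was called higher (log2 difference 1.09 ± 0.30, adjusted p = 0.0059; 29.4% of all rows were higher). Junb (-0.33 ± 0.13, adjusted p = 0.0399) and Zfp36 (-0.61 ± 0.20, adjusted p = 0.0165) were then lower as well, 6 in all where 27.2% of all rows were. Each of these 3 genes kept its direction in 3 of 3 prefixes that both groups have, but not every same-prefix pair of libraries deviated together here.

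MacLowKit-Sca1- cells, the remaining MacLow group, had 5 genes lower than MacHigh cells, where 26.2% of all rows were called lower. Atf3 averaged 2.64 ± 1.7 FPKM in MacLowKit-Sca1- cells and 14.3 ± 4.8 FPKM in MacHigh cells (log2 difference -2.15 ± 0.26, adjusted p = 7.21e-07). The others were Egr1 (log2 difference -1.40 ± 0.42, adjusted p = 0.00817), Nr4a1 (log2 difference -1.30 ± 0.38, adjusted p = 0.00654), Junb (log2 difference -0.98 ± 0.27, adjusted p = 0.00437) and Jund (log2 difference -0.82 ± 0.23, adjusted p = 0.00569). The groups did not overlap for Atf3 and Jund (19.4% of all rows lay lower without overlap and 16.3% higher). With the name prefix as a block 8 were lower, where 31.9% of all rows were. Fos (log2 difference -1.13 ± 0.20, adjusted p = 9.53e-05), Jun (log2 difference -0.89 ± 0.28, adjusted p = 0.00977) and Zfp36 (log2 difference -0.96 ± 0.19, adjusted p = 0.000283) were called as well. Fos and Zfp36 were lower in 4 of 4 prefixes that both groups have, and Jun in 3 of 4.

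The 2 Kit+ groups differed from each other as well. 8 genes were higher in MacLowKit+Sca1+ than in MacLowKit+Sca1- cells, all but Fosb and Ier2, where 26.8% of all rows were called higher. The groups did not overlap for Junb, Jund, Egr1 and Atf3 (20.0% of all rows lay higher without overlap). Atf3 averaged 6.11 ± 1.7 FPKM in MacLowKit+Sca1+ cells and 0.361 ± 0.25 FPKM in MacLowKit+Sca1- cells (log2 difference 2.37 ± 0.27, adjusted p = 1.43e-07), and in the 3 prefixes with both libraries it was 10.5- to 28.3-fold higher. Jund averaged 57.3 ± 7.3 FPKM in MacLowKit+Sca1+ cells and 12.1 ± 5.6 FPKM in MacLowKit+Sca1- cells (log2 difference 2.24 ± 0.25, adjusted p = 9.67e-08). Junb averaged 109.7 ± 30.5 FPKM in MacLowKit+Sca1+ cells and 32.7 ± 11.4 FPKM in MacLowKit+Sca1- cells (log2 difference 1.75 ± 0.29, adjusted p = 2.04e-05). Within prefixes Fos was 3.88-, 3.97- and 4.13-fold higher although its level differed 6.90-fold between the R and 26 libraries of MacLowKit+Sca1+ cells and 6.75-fold between those of MacLowKit+Sca1- cells (log2 difference 1.72 ± 0.69, adjusted p = 0.0407). The log2 differences of Jun (1.88 ± 0.58), Nr4a1 (1.64 ± 0.40), Egr1 (1.56 ± 0.45) and Zfp36 (1.45 ± 0.49) had adjusted p-values from 0.0014 to 0.0159. With the prefix as a block Fosb was called higher (log2 difference 1.45 ± 0.30, adjusted p = 0.000514) and Ier2 lower (log2 difference -0.42 ± 0.14, adjusted p = 0.0155). That made 9 higher and 1 lower, beside 30.3% of all rows higher and 32.8% lower, and Ier2 was lower in 3 of 3 prefixes. The median of the 10 was 1.68, beside -0.02 over all rows. When every library was rescaled to the same FPKM sum 7 were higher and 1 (Ier2) lower. Without MacLowKit+Sca1+ replicate 1 or 4 Fos and Zfp36 were no longer called, and without MacLowKit+Sca1- replicate 2 or 4 Fos was not (adjusted p = 0.0577 to 0.148).

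**Figure D2:**
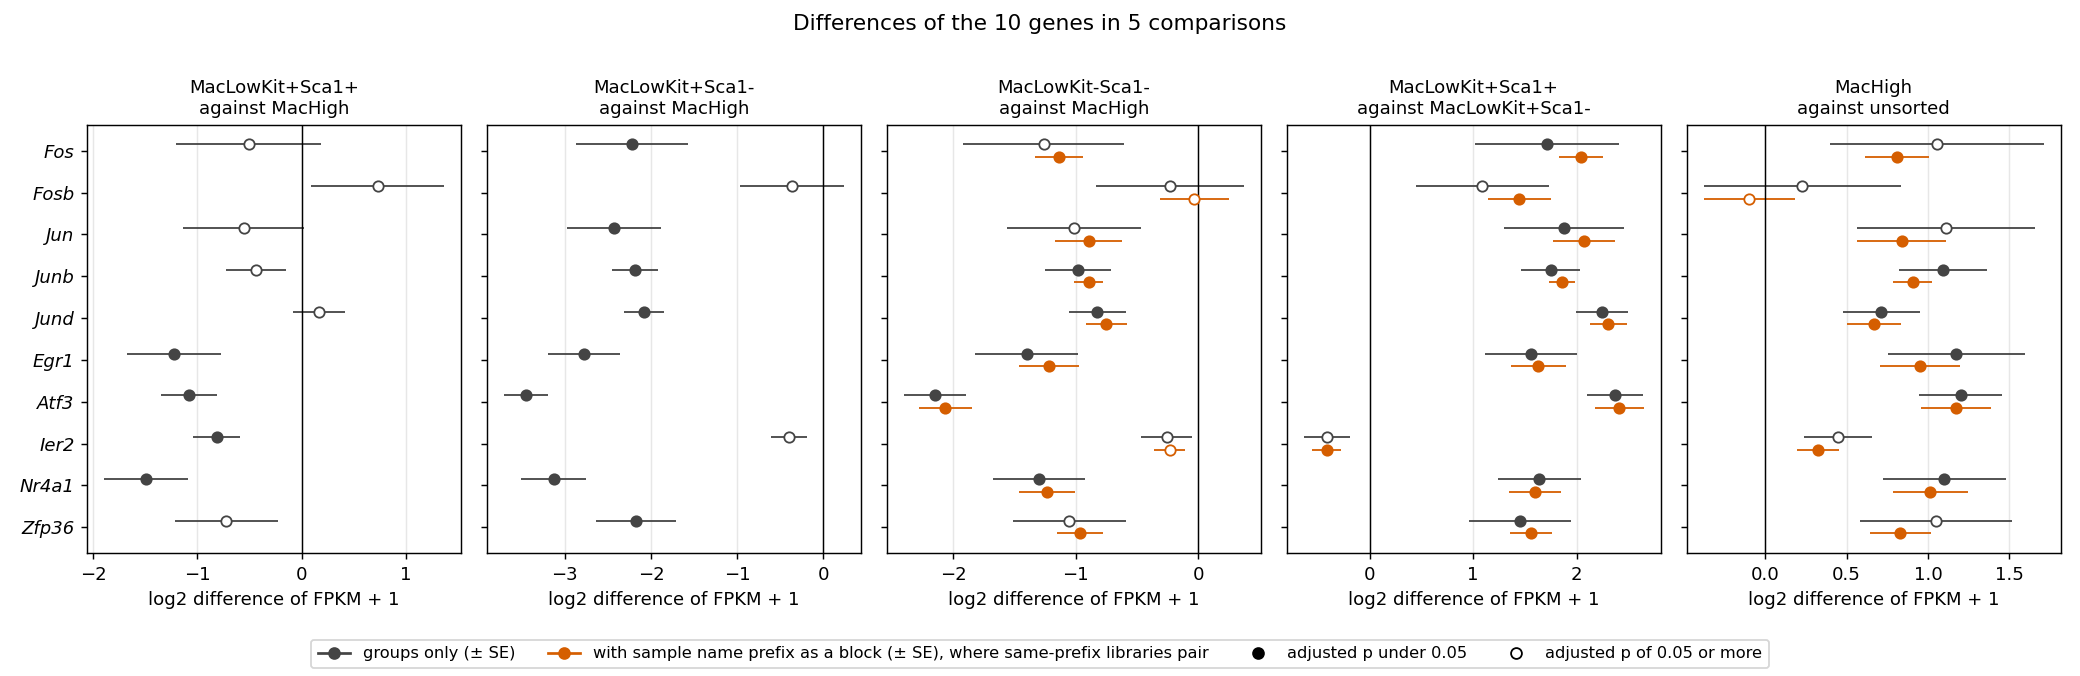
Log2 differences of FPKM + 1 (± SE) of the 10 genes in 5 comparisons, from the fit of the groups alone. The fit with the prefix as a block is shown too where the deviations of every same-prefix pair correlated above 0.1. Filled points have an adjusted p under 0.05: 8 genes lie below 0 in MacLowKit+Sca1- against MacHigh cells and 8 above 0 in MacLowKit+Sca1+ against MacLowKit+Sca1- cells.

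Against MacLowKit-Sca1- cells, Atf3 (log2 difference 1.07 ± 0.27, adjusted p = 0.00264) and Jund (log2 difference 0.99 ± 0.25, adjusted p = 0.00256) were higher in MacLowKit+Sca1+ cells and Ier2 was lower (log2 difference -0.56 ± 0.22, adjusted p = 0.0445). 21.8% of all rows were called higher and 23.3% lower, so 3 of 10 is no larger a share than among all rows. Only Jund did not overlap among the 10 (17.3% of all rows lay higher without overlap). With the prefix block 5 were higher, Fos, Fosb, Junb, Jund and Atf3 (26.0% of all rows), and Ier2 lower (29.0%). Fos differed by 0.95 ± 0.20 (adjusted p = 0.000767), Fosb by 1.12 ± 0.29 (adjusted p = 0.00374) and Junb by 0.57 ± 0.12 (adjusted p = 0.000969), each higher in 4 of 4 prefixes. Ier2 lost its call without MacLowKit+Sca1+ replicate 2 or 3 or MacLowKit-Sca1- replicate 1 or 5 (adjusted p = 0.107 to 0.147).

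MacLowKit+Sca1- cells were lower than MacLowKit-Sca1- cells in 7 of the 10 genes, where 26.3% of all rows were. Those were Nr4a1 (log2 difference -1.83 ± 0.38, adjusted p = 0.000351), Atf3 (log2 difference -1.30 ± 0.26, adjusted p = 0.000204), Jund (log2 difference -1.26 ± 0.23, adjusted p = 0.000124) and Junb (log2 difference -1.20 ± 0.27, adjusted p = 0.000806). Egr1 (log2 difference -1.38 ± 0.42, adjusted p = 0.00911), Jun (log2 difference -1.41 ± 0.55, adjusted p = 0.0358) and Zfp36 (log2 difference -1.12 ± 0.46, adjusted p = 0.0489) were lower too, with wider errors. Jund alone of the 10 did not overlap (14.7% of all rows lay lower without overlap). With the prefix block Fos was lower too (log2 difference -1.09 ± 0.20, adjusted p = 0.000144), 8 in all where 31.1% of all rows were. The calls of Jun and Zfp36 were not firm. Jun lost its call without MacLowKit+Sca1- replicate 2 or 4 or MacLowKit-Sca1- replicate 1, 4 or 5 (adjusted p = 0.07 to 0.144), with a log2 difference of -0.90 without MacLowKit+Sca1- replicate 2. Zfp36 lost its call without any of 7 libraries, MacLowKit+Sca1- replicates 1 to 4 and MacLowKit-Sca1- replicates 1, 4 and 5 (adjusted p = 0.0598 to 0.141).

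Set against unsorted cells, the MacHigh cells were higher in 5 genes, where 21.3% of all rows were called higher. Atf3 averaged 14.3 ± 4.8 FPKM in MacHigh cells and 5.44 ± 0.81 FPKM in unsorted cells (log2 difference 1.20 ± 0.26, adjusted p = 0.000945). The others were Egr1 (log2 difference 1.17 ± 0.42, adjusted p = 0.0314), Nr4a1 (log2 difference 1.10 ± 0.38, adjusted p = 0.0251), Junb (log2 difference 1.09 ± 0.27, adjusted p = 0.00317) and Jund (log2 difference 0.71 ± 0.23, adjusted p = 0.0197). The groups did not overlap for Atf3, Jun, Junb and Nr4a1 (17.2% of all rows lay higher without overlap). With the prefix block all but Fosb were higher, 9 genes where 28.4% of all rows were. The log2 differences of those added were 0.81 ± 0.20 for Fos (adjusted p = 0.00249), 0.84 ± 0.27 for Jun (adjusted p = 0.017), 0.83 ± 0.19 for Zfp36 (adjusted p = 0.00149) and 0.32 ± 0.13 for Ier2 (adjusted p = 0.0439). Each of the 9 was higher in 4 of 4 prefixes. Without the block the count turned on single libraries, from 2 without MacHigh replicate 5 or unsorted replicate 2, and 3 without MacHigh replicate 1 or 4 or unsorted replicate 1, to 7 without MacHigh replicate 2. Egr1 lost its call without any 1 of those 5 libraries that left 2 or 3 genes, or without unsorted replicate 3. Nr4a1 lost its call without MacHigh replicate 1 or 5 or unsorted replicate 1 or 2, and Jund without MacHigh replicate 4 or 5 or unsorted replicate 2 (adjusted p = 0.0507 to 0.0823). Sorting and the make-up of the cells differ together between sorted and unsorted samples, and the effects of the one and the other cannot be told apart.

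The MacLow groups were each set against unsorted cells too. MacLowKit+Sca1- cells were lower than unsorted cells in 5 genes, where 23.8% of all rows were. These were Atf3 (log2 difference -2.25 ± 0.26, adjusted p = 2.2e-07), Nr4a1 (log2 difference -2.03 ± 0.38, adjusted p = 0.00013), Egr1 (log2 difference -1.61 ± 0.42, adjusted p = 0.00325), Jund (log2 difference -1.36 ± 0.23, adjusted p = 5.26e-05) and Junb (log2 difference -1.09 ± 0.27, adjusted p = 0.00207). All but Jund of these did not overlap (17.2% of all rows lay lower without overlap). MacLowKit+Sca1+ cells were higher in Jund (57.3 ± 7.3 FPKM in MacLowKit+Sca1+ cells, against 31.2 ± 7.3 FPKM in unsorted cells; log2 difference 0.88 ± 0.25, adjusted p = 0.00854), without overlap. There 17.2% of all rows were called higher and 15.5% lay higher without overlap. With the prefix block Fos (log2 difference 0.63 ± 0.21, adjusted p = 0.0227), Fosb (log2 difference 0.99 ± 0.30, adjusted p = 0.014) and Junb (log2 difference 0.58 ± 0.13, adjusted p = 0.00153) were higher as well, 4 genes where 22.0% of all rows were. Ier2 was lower (log2 difference -0.49 ± 0.14, adjusted p = 0.00877), with 20.5% of all rows. MacLowKit-Sca1- cells were lower in Atf3 (log2 difference -0.95 ± 0.26, adjusted p = 0.0141), where 8.91% of all rows were, and this call was lost without MacLowKit-Sca1- replicate 4 (adjusted p = 0.0555). The 10 comparisons share groups, so their calls are not independent of each other.

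The second part of the pattern ran through the groups. 2 prefixes, R and 26, have a library in all 5 groups, and each of the 10 genes was higher in the R than in the 26 library of every group. Fos was 6.90-fold higher in R than in 26 in MacLowKit+Sca1+ cells, 6.75-fold in MacLowKit+Sca1- cells, 6.17-fold in MacLowKit-Sca1- cells, 6.33-fold in MacHigh cells and 6.22-fold in unsorted cells. The ratio was thus nearly the same in all 5 groups, although the groups' own Fos levels differed. Fosb had ratios of 5.47 to 23.5, Jun of 2.33 to 15.6, Zfp36 of 2.95 to 4.11, Egr1 of 1.78 to 8.08 and Nr4a1 of 1.39 to 4.29. The other ratios were 1.61 to 2.67 for Junb, 1.33 to 3.54 for Jund, 1.15 to 4.33 for Atf3 and 1.35 to 1.73 for Ier2. Over all 11599 rows, 21.8% were higher in R in all 5 groups. By the mean of the 5 log2 differences (R minus 26) the 10 genes lay between the 97.5th (Atf3) and the 99.8th (Fos) percentile of all rows.

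R libraries were the highest of their group in 32 of the 50 combinations of gene and group, and over all rows an R library was highest in 23.1% of combinations. 26 libraries were the lowest in 33 of 50, and over all rows in 26.1%. The groups were uneven in this: the R library was highest for 3 of 10 genes in unsorted cells and for 9 in MacLowKit+Sca1- cells. The 26 library was lowest for 2 of 10 genes in MacLowKit-Sca1- cells and for 9 in unsorted cells. The mean deviation of the 10 genes from the group mean was 0.67 on the log2 scale for R, 0.35 for 11, 0.036 for L, 0.0024 for N, -0.45 for 12 and -0.71 for 26. Depth moved with this only in part: the R libraries were at 0.8 to 1.98 of the median depth, the L libraries at 1.53 to 1.81, and the 26 libraries at 0.857 to 1.07. Of 40 other immediate early genes 21 were higher in R in all 5 groups, against 6 of 23 other AP-1 and bZIP genes and 4 of 13 heat shock genes. Of marker lists, 2 of 11 dendritic cell genes, 1 of 11 red pulp macrophage genes and 2 of 12 monocyte and macrophage genes were higher in R in all 5 groups. The count was 0 of 11 for the neutrophil genes. S100a8, S100a9 and Ngp among them could not be counted, since they are listed at 0 in every MacLowKit+Sca1- library. The median of the mean R minus 26 difference was 1.22 over the 10 genes, beside 0.042 over all rows. It was 0.707 over the dendritic cell genes and 0.086 over the red pulp macrophage genes. It was 0.14 over the monocyte and macrophage genes and -0.14 over the neutrophil genes. The part of the dendritic cell genes in the result was not tested.

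**Figure D3:**
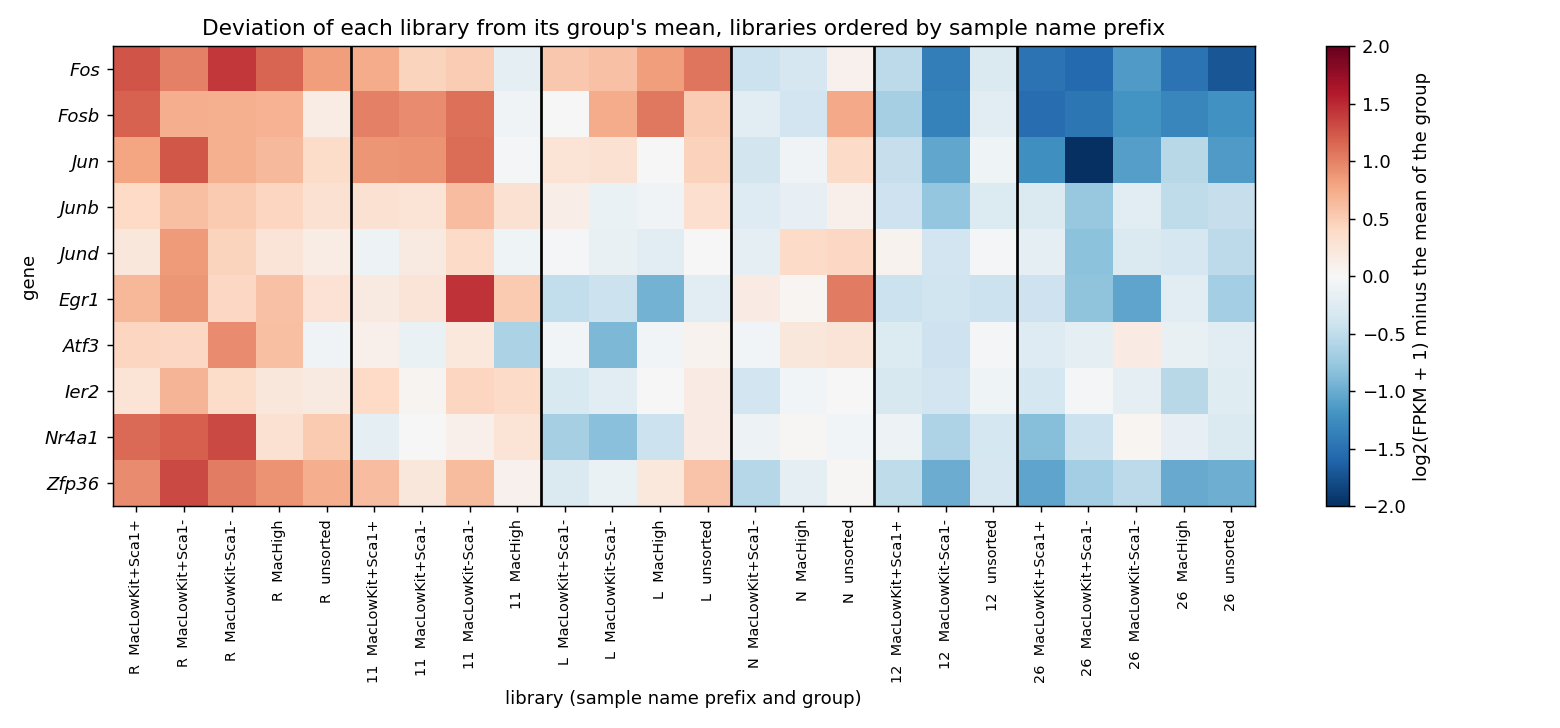
Deviation of log2(FPKM + 1) from the mean of the group for the 10 genes (rows) in the 24 libraries (columns), ordered by sample name prefix. The 5 R libraries are above their group mean in 49 of 50 squares and the 5 libraries of prefix 26 in 2 of 50.

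The 10 genes varied together. Over the 24 libraries the 45 pairwise correlations of log2(FPKM + 1) had a median of 0.79 (0.18 to 0.94), and after the group means were taken off all 45 were above 0, with a median of 0.69 (0.39 to 0.92). Zfp36 and Junb had the highest median correlation with the others within groups (0.85 and 0.83) and Atf3 the lowest (0.50). The points share libraries, depth and prefixes, and are given as a description. No such value is given for pairs of other rows, so whether this is particular to the 10 genes is not shown. By the mean of the standardised profiles of the 10 genes, the other rows most like it over the 24 libraries were Ier3 (r = 0.92), Atraid (0.90), Zfp36l2 (0.90), Arl6ip5 (0.90), Rnf215 (0.90), Zfp36l1 (0.89), Btg1 (0.88) and Plk3 (0.88). Of these Ier3, Zfp36l2, Zfp36l1, Btg1 and Plk3 were on the list of other immediate early genes. Fos was most like Dusp1 (0.92), the gene of a MAP kinase phosphatase, then Zfp36l2 (0.88) and Atraid (0.86). Jund was most like Cd2ap (0.97), Fyn (0.97) and Smagp (0.97), and Nr4a1 most like Cytip (0.96), Plk3 (0.95) and Metrnl (0.95). Cd2ap averaged 41.8 FPKM in MacLowKit+Sca1+ cells, 5.82 in MacLowKit+Sca1- cells, 16.5 in MacLowKit-Sca1- cells, 38.4 in MacHigh cells and 21.4 in unsorted cells, the order in which the means of Jund stood.

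The summed FPKM of Jun, Junb and Jund averaged 212 ± 61.0 in MacLowKit+Sca1+ cells, 57.6 ± 25.8 in MacLowKit+Sca1- cells, 139 ± 57.6 in MacLowKit-Sca1- cells, 259 ± 60.9 in MacHigh cells and 128 ± 31.5 in unsorted cells. Junb made up 51.9% ± 3.8 of it in MacLowKit+Sca1+ cells, 59.3% ± 7.3 in MacLowKit+Sca1- cells, 56.1% ± 4.5 in MacLowKit-Sca1- cells, 57.3% ± 4.2 in MacHigh cells and 54.3% ± 4.5 in unsorted cells. Jun made up 19.8% ± 7.9 in MacLowKit+Sca1+ cells, 19.4% ± 8.5 in MacLowKit+Sca1- cells, 21.9% ± 6.9 in MacLowKit-Sca1- cells, 22.4% ± 2.4 in MacHigh cells and 20.9% ± 4.0 in unsorted cells, and its share varied widely between libraries, over 6.15% to 27.1% in MacLowKit+Sca1- cells. Jund had a mean share of 28.4% ± 7.0 in MacLowKit+Sca1+ cells and of 20.3% to 24.8% in the other groups, with ranges that overlapped. Within the Fos family Fos made up 85.3% ± 5.6 in MacLowKit+Sca1+ cells and 54.6% to 71.4% on average in the other groups. Fosl2, a Fos-related partner of the Jun proteins, made up 7.37% ± 7.4 in MacLowKit+Sca1+ cells and 24.8% to 37.9% on average in the others (SD 14.7 to 22.0). Here too the MacLowKit+Sca1+ range, 1.77% to 17.9%, overlapped those of all groups but MacLowKit-Sca1- cells. The MacLowKit+Sca1+ group has no L or N library. Fosl2 itself was lower in MacLowKit+Sca1+ cells than in MacHigh cells (4.03 ± 0.99 FPKM in MacLowKit+Sca1+ cells, 29.5 ± 3.6 in MacHigh cells; log2 difference -2.61 ± 0.24, adjusted p = 1.06e-08). It was also lower than in MacLowKit+Sca1- cells (log2 difference -1.08 ± 0.24, adjusted p = 0.00064), while Fos was higher in MacLowKit+Sca1+ than in MacLowKit+Sca1- cells.

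**Figure D4:**
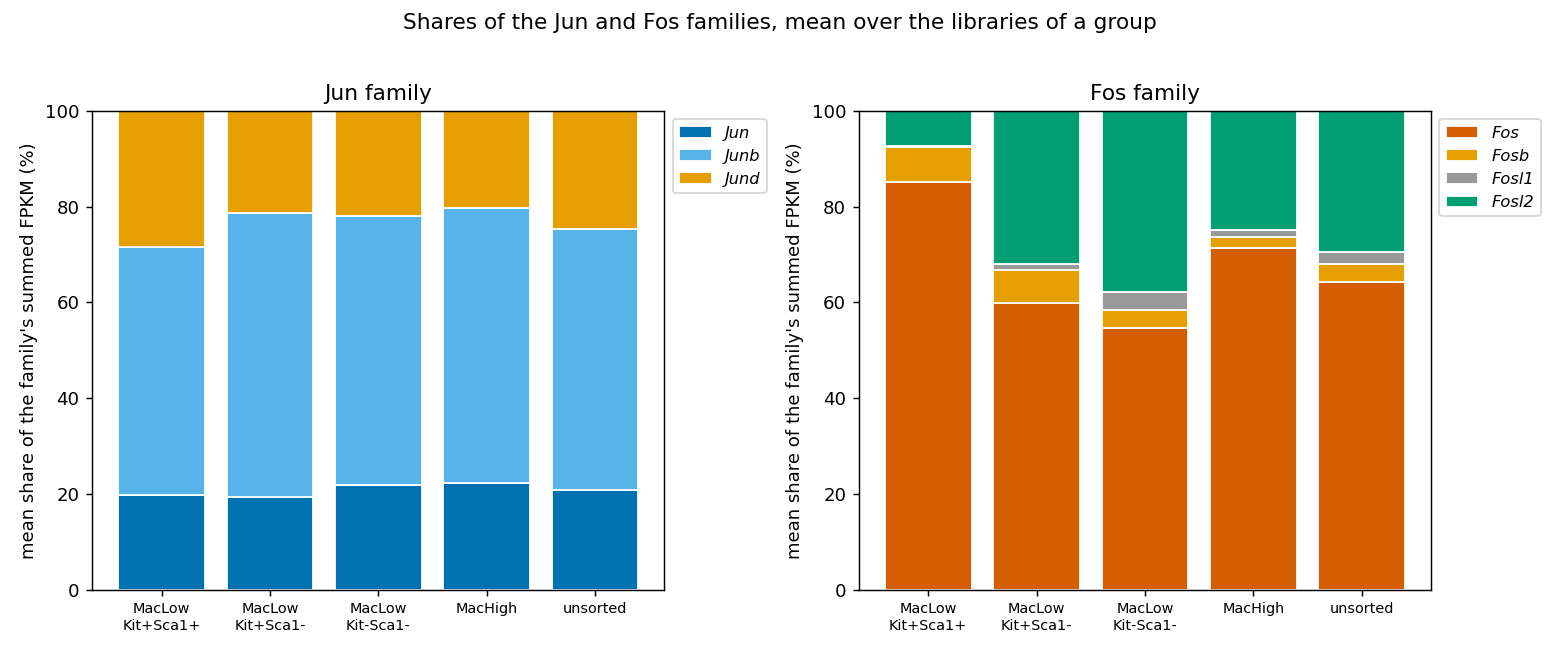
Mean share (%) of each gene in the summed FPKM of its family, by group, for the Jun family (left) and the Fos family (right). Junb holds more than 50% of the Jun family in all 5 groups, and Fosl2 holds 7.37% of the Fos family in MacLowKit+Sca1+ cells.

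Other AP-1 and related bZIP genes (23 tested) differed in both directions. In MacLowKit+Sca1+ against MacHigh cells 23.6% of all rows were called higher and 22.4% lower. Of the 23 genes, 1 was higher and 9 were lower there (median -0.21, beside 0.03 over all rows). The higher one was Batf3, a Jun partner that dendritic cells of the cDC1 type need, at 79.5 ± 19.7 FPKM in MacLowKit+Sca1+ cells and 32.6 ± 8.3 FPKM in MacHigh cells (log2 difference 1.26 ± 0.41, adjusted p = 0.0158). Besides Fosl2 the lower ones included Nfe2l2, which drives antioxidant genes (-1.24 ± 0.10, adjusted p = 1.06e-09), and Bach1, a repressor of haem oxygenase (-1.51 ± 0.14, adjusted p = 1.35e-08). In MacLowKit+Sca1- against MacHigh cells 5 were higher and 14 lower, beside 32.5% and 30.3% of all rows. In MacLowKit+Sca1+ against MacLowKit+Sca1- cells 9 were higher and 9 lower, beside 26.8% and 28.5% of all rows. In MacHigh against unsorted cells 7 were higher, where 21.3% of all rows were called higher and 18.2% lower. Among the 7 were Atf6, a sensor of endoplasmic reticulum stress (0.72 ± 0.09, adjusted p = 6.51e-06), and Bach1 (0.68 ± 0.13, adjusted p = 0.000465). When every library was rescaled to the same FPKM sum, 4 were higher and 3 lower there. Of the calls over all rows 24.4% were then higher, beside 53.9% without rescaling.

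Of the other immediate early genes 40 of 43 listed were tested. The shares of all rows called are those given above with the bZIP genes, except where stated. 7 were higher and 29 lower in MacLowKit+Sca1- than in MacHigh cells (median -1.27, beside 0.03 over all rows), and 24 were higher and 4 lower in MacLowKit+Sca1+ than in MacLowKit+Sca1- cells (median 0.88, beside -0.02). Dusp1 was at 17.0 FPKM on average in MacLowKit+Sca1- cells and 95.4 in MacHigh cells (log2 difference -2.41 ± 0.88, adjusted p = 0.0209). In MacLowKit+Sca1+ against MacHigh cells 6 were higher and 15 lower (median -0.35). Gadd45b, which acts in stress signalling, was at 13.4 ± 3.9 FPKM in MacLowKit+Sca1+ cells and 6.47 ± 1.3 in MacHigh cells (log2 difference 0.93 ± 0.18, adjusted p = 0.00017). Myc, the growth regulator, was at 88.5 ± 28.3 FPKM in MacLowKit+Sca1+ cells and 39.2 ± 8.8 in MacHigh cells (1.13 ± 0.23, adjusted p = 0.000338). Nr4a2, a paralogue of Nr4a1, was higher by 1.00 ± 0.21 (adjusted p = 0.000514). Klf4, a factor of monocyte differentiation, was lower (5.45 ± 1.7 FPKM in MacLowKit+Sca1+ cells, 53.8 ± 11.5 in MacHigh cells; -3.10 ± 0.22, adjusted p = 1.33e-10). Also lower were Egr2 (-1.23 ± 0.18, adjusted p = 9.48e-06) and Klf10 (-1.32 ± 0.20, adjusted p = 1.03e-05). In MacHigh against unsorted cells 19 were higher and 3 lower (median 0.61, beside 0.02), with Egr2, Mcl1 and Dusp5 the highest by the test and Gadd45a, Gadd45b and Myc the 3 lower. Mcl1, which protects cells from apoptosis, was at 299.5 ± 23.6 FPKM in MacHigh cells and 171 ± 17.6 in unsorted cells (0.81 ± 0.13, adjusted p = 9.04e-05). In MacLowKit+Sca1- against MacLowKit-Sca1- cells 5 were higher and 12 lower, where 2780 of the 11599 rows were called higher and 3045 (26.3%) lower. With the prefix block 24 were lower, where 31.1% of all rows were.

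Genes upstream of the early genes differed in both directions. Of 26 kinases and transcription factors, 8 were higher and 8 lower in MacLowKit+Sca1- than in MacHigh cells (median -0.02), shares near those of all rows (32.5% higher and 30.3% lower). In MacLowKit+Sca1+ against MacHigh cells 2 were higher and 12 lower (median -0.20), beside 23.6% and 22.4% of all rows. In MacHigh against unsorted cells 8 were higher (median 0.21), beside 21.3% of all rows. Mapkapk2, the kinase under p38 that acts on Zfp36, averaged 153 ± 12.0 FPKM in MacLowKit+Sca1+ cells, 221 ± 14.1 in MacLowKit+Sca1- cells, 271 ± 8.5 in MacLowKit-Sca1- cells, 254 ± 15.8 in MacHigh cells and 204 ± 21.2 in unsorted cells. Elk3, a partner of SRF, averaged 20.1 ± 6.7 FPKM in MacLowKit+Sca1+ cells, 9.44 ± 2.6 in MacLowKit+Sca1- cells, 25.1 ± 2.0 in MacLowKit-Sca1- cells, 31.0 ± 2.5 in MacHigh cells and 19.6 ± 1.4 in unsorted cells. Of 10 tested AU-rich mRNAs that Zfp36 is known to bind, 1 was higher and 9 were lower in MacLowKit+Sca1- than in MacHigh cells (median -1.77), the direction in which Zfp36 itself moved. Ccl2 was at 1.05 ± 1.1 FPKM in MacLowKit+Sca1- cells and 95.9 ± 30.9 in MacHigh cells. Ccl4 was at 0.770 ± 0.23 FPKM in MacLowKit+Sca1- cells and 11.2 ± 3.5 in MacHigh cells. Of 13 heat shock genes, which cell stress induces, 3 were higher and 3 lower in that comparison (median 0.02). In MacLowKit+Sca1- against MacLowKit-Sca1- cells 7 were lower, where 26.3% of all rows were. Bag3, a co-chaperone, was at 5.39 ± 1.2 FPKM in MacLowKit+Sca1- cells, 14.9 ± 2.0 in MacLowKit-Sca1- cells and 17.7 ± 1.9 in MacHigh cells. Hsp90aa1, a chaperone, was at 56.9 ± 18.3 FPKM in MacLowKit+Sca1- cells, 80.1 ± 20.8 in MacLowKit-Sca1- cells and 29.9 ± 3.8 in MacHigh cells.

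Markers of other cell types differed between the groups too, some in the direction of the 10 genes and some against it. The shares of all rows called are those given above with the bZIP genes, except for MacLowKit+Sca1- against MacLowKit-Sca1- cells. There 2780 of the 11599 rows were called higher and 3045 (26.3%) lower. Of 12 monocyte and macrophage genes 11 were lower and 1 higher in MacLowKit+Sca1- than in MacHigh cells. Their summed FPKM ranged over 985 to 1514 in MacLowKit+Sca1+ cells, 1206 to 1906 in MacLowKit+Sca1- cells, 2117 to 2876 in MacLowKit-Sca1- cells, 3648 to 4281 in MacHigh cells and 2073 to 2797 in unsorted cells. By gene, 7 of the 12 were higher and 3 lower in MacLowKit+Sca1+ than in MacLowKit+Sca1- cells (median 0.70). Ctss was at 336 ± 49.2 FPKM in MacLowKit+Sca1+ cells and 34.35 ± 20.5 in MacLowKit+Sca1- cells. Ly6c2, which weighs on these sums, went the other way, at 387 ± 214.8 FPKM in MacLowKit+Sca1+ cells and 1159 ± 252.4 in MacLowKit+Sca1- cells. All 11 red pulp macrophage genes tested and 10 of 11 dendritic cell genes were higher in MacLowKit+Sca1+ than in MacLowKit+Sca1- cells, the comparison in which 8 of the 10 early genes were higher. The summed FPKM of the red pulp macrophage genes was 902 to 2137 in MacLowKit+Sca1+ cells, 80.1 to 141 in MacLowKit+Sca1- cells, 66.7 to 141 in MacLowKit-Sca1- cells, 571 to 1089 in MacHigh cells and 426 to 549 in unsorted cells. That of the dendritic cell genes was 9621 to 18230 in MacLowKit+Sca1+ cells, 499.6 to 3142 in MacLowKit+Sca1- cells, 647 to 1960 in MacLowKit-Sca1- cells, 6527 to 13810 in MacHigh cells and 3440 to 5144 in unsorted cells. Both lists were thus high in the 2 sorted groups in which most of the 10 genes were high, and low in both MacLow groups without Sca-1. Hmox1 averaged 226 ± 60.6 FPKM in MacLowKit+Sca1+ cells and 17.3 ± 5.0 in MacLowKit+Sca1- cells. C1qb averaged 199 ± 80.9 FPKM in MacLowKit+Sca1+ cells and 1.48 ± 1.1 in MacLowKit+Sca1- cells, and Cd74 10010 ± 2573 in MacLowKit+Sca1+ cells and 857 ± 731 in MacLowKit+Sca1- cells. No gene of these 3 lists was listed at 0 in all libraries of a group. Batf3 stands on the dendritic cell list and among the bZIP genes, and the part of such cells in the results was not tested. In MacLowKit+Sca1- against MacLowKit-Sca1- cells, where 7 of the 10 genes were lower, 10 of 12 monocyte and macrophage genes were lower. There 2 red pulp macrophage genes were higher and 3 lower, with Hmox1 (log2 difference -1.69 ± 0.23, adjusted p = 2.98e-06) and C1qb (-1.10 ± 0.33, adjusted p = 0.00818) among the lower, and 2 of 11 dendritic cell genes were lower. In MacLowKit+Sca1+ against MacHigh cells, where 4 of the 10 genes were lower, 6 red pulp macrophage and 7 dendritic cell genes were higher and 1 of each list lower, while all 12 monocyte and macrophage genes were lower. Of 11 neutrophil genes 3 were higher and 8 lower in MacLowKit+Sca1+ than in MacLowKit+Sca1- cells. S100a8, S100a9 and Ngp of that list were listed at 0 in every MacLowKit+Sca1- library, and S100a8 and S100a9 were among the 3 higher. S100a9 was also listed at 0 in every unsorted library, where S100a8 was at 16781 to 39685 FPKM. Whether such a 0 means no RNA or a missing estimate was not tested. Of 10 NK cell genes 8 were higher and 1 lower in MacLowKit+Sca1+ than in MacLowKit+Sca1- cells, and 7 were lower in MacHigh than in unsorted cells, where 5 of the 10 early genes were higher.

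**Figure D5:**
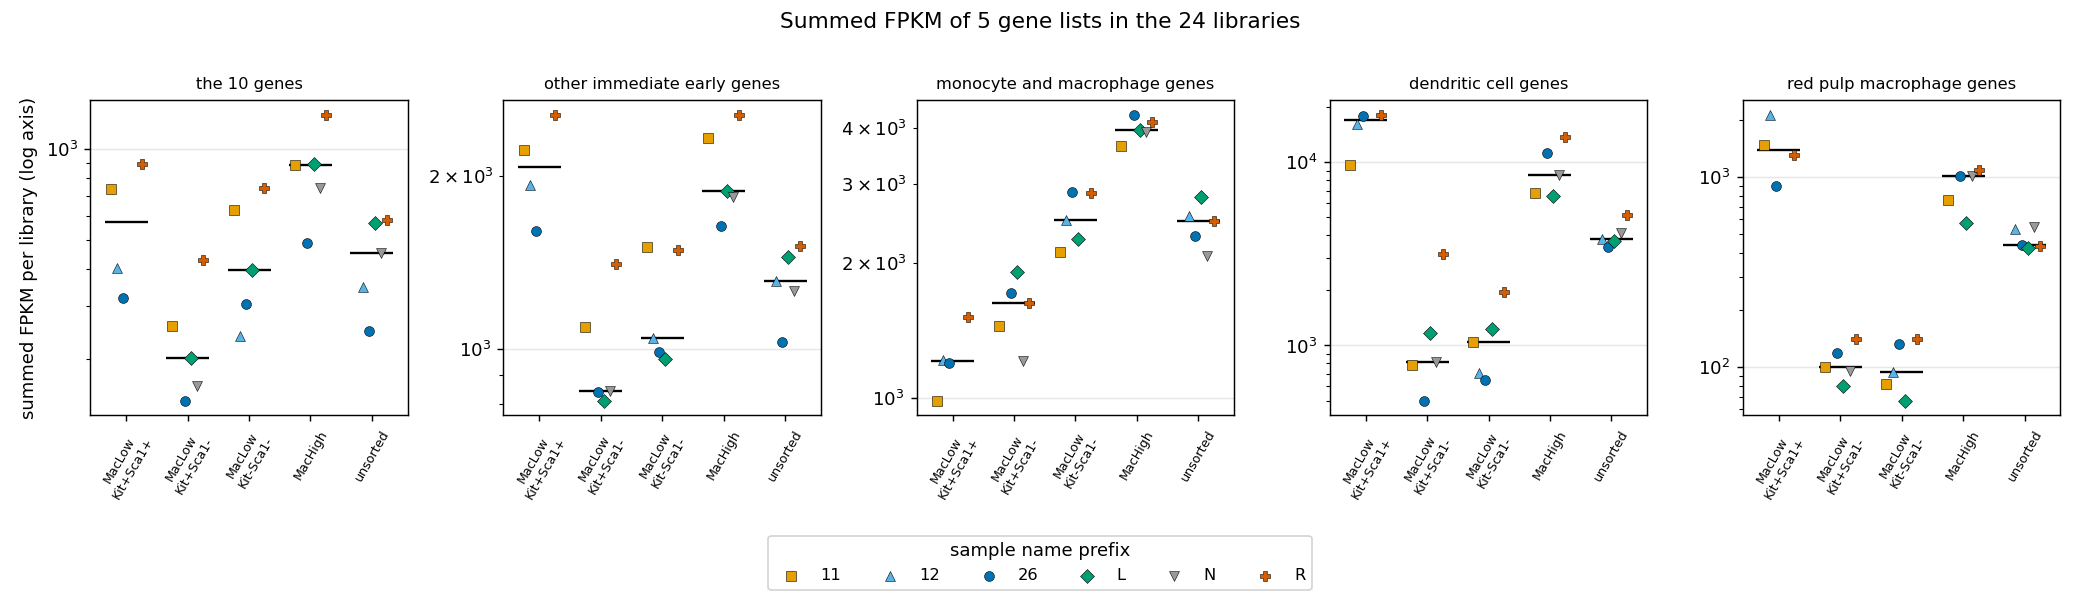
Summed FPKM (log axis) of the 10 genes and of 4 lists in each of the 24 libraries, by group, with colour and shape for the sample name prefix and a bar at the median. The dendritic cell and red pulp macrophage sums are high in MacLowKit+Sca1+ and MacHigh cells, and within each group the 10 genes are spread by prefix.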

How the data were processed

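RNA of AML cells from mouse spleens was sequenced, and the authors deposited 1 table of FPKM for 24 libraries, in which 0.001 stands for 0. Reads were aligned with TopHat2 2.0.4 and quantified with Cuffdiff on mm10, per the submitters' processing notes; the annotation and normalization are not given in the sources used here. No counts were used, so the depth is unknown beyond a relative value from low FPKM. Rows with at least 1 FPKM in 4 libraries (11599) were taken as log2(FPKM + 1) and fitted with limma 3.58.1 (R 4.3.3) over all 24 libraries and 5 groups, with a trended prior, a moderated test for each of 10 comparisons and Benjamini-Hochberg adjustment over all rows. The fit was tested on simulated data with independent spread and no effect of the name prefix, so that test does not cover deviations shared by a prefix. Differences are first group minus second.

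Over all 10 comparisons 38 pairs of libraries shared a sample name prefix, and their deviations from the group means had a mean correlation of 0.24. Such libraries were taken as paired where every pair's deviations correlated above 0.1, which held in 7 of 10 comparisons. There the fit with the prefix as a block is given where it changes a call. The exceptions were MacLowKit+Sca1+ and MacLowKit+Sca1- against MacHigh and MacLowKit+Sca1- against unsorted. Their block results are given with the alternatives, and for MacLowKit+Sca1+ against MacHigh also in the results.

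The members and gene lists were chosen with earlier results of these data known. From the 2 lists of early and bZIP genes, the 3 with the largest moderated t in each direction in 2 comparisons were named, from other gene lists the 2 with the largest F, from marker lists the 2 with the highest mean FPKM, and as like patterns the rows with the highest correlation. 1 gene that this rule names is not reported here. Dusp1 among the list genes, and Fosl2 in a further comparison, were added after their values were seen. Gene positions are from GENCODE vM21 (mm10) and promoters from RefSeq (GRCm38.p6).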

Additional observations from a re-analysis of the deposited data

Results flagged for a closer look

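Atf3 in MacLowKit+Sca1- cells was at 0.799 FPKM in replicate 5, of the sample name prefix R, while the other 4 libraries of the group lay between 0.185 and 0.299 FPKM. Its gap to the next library was 0.779 of the range of the group, above the critical value of 0.71 for 5 libraries. It was 1 of 50 combinations of gene and group examined, and chance alone marks about 1 in 20. The cause was not tested.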

How the results depend on the processing

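Of the 100 differences of the members, the 71 called in the fit of the groups alone or with the prefix as a block were followed. None of the 71 changed sign under any alternative, but a change of sign was unlikely for differences chosen in this way. Under the stricter filter none of the 71 changed its side of the threshold. With every library rescaled to the same FPKM sum, 3 genes were called in MacHigh against unsorted cells, and the median of all rows shifted by up to 0.289 on the log2 scale (MacLowKit+Sca1- against MacHigh). That rescaling moved the share of calls that are higher from a range of 38.9% to 53.9% over the comparisons to 9.15% to 71.8%, and quantile normalization moved it to 38.5% to 64.6%. With only the compared groups in the fit, 2 genes were called in MacLowKit+Sca1+ against unsorted cells and 8 in MacHigh against unsorted cells. With the prefix as a replicate block, the counts were 7 in MacLowKit+Sca1+ against MacHigh cells (6 lower, where 27.2% of all rows were, and Fosb higher, where 29.4% were), 8 in MacLowKit-Sca1- against MacHigh cells, 6 in MacLowKit+Sca1+ against MacLowKit-Sca1- cells, 5 in MacLowKit+Sca1+ against unsorted cells, 8 lower in MacLowKit+Sca1- against unsorted cells (26.8% of all rows) and 9 in MacHigh against unsorted cells. In MacLowKit+Sca1- against MacHigh cells it called 9 lower (34.0% of all rows). Among the 4 sorted groups it called 10 of the 10 genes (90.6% of all rows). The median SE of the 10 genes was 0.20 to 0.22 with the block and 0.40 to 0.42 without it. In MacLowKit+Sca1+ and MacLowKit+Sca1- against MacHigh cells and MacLowKit+Sca1- against unsorted cells not every same-prefix pair correlated above 0.1. The mean correlation of same-prefix pairs there was 0.23, 0.10 and 0.20, in that order, and that of other pairs -0.040, -0.025 and -0.040. Replicate numbers of the titles paired the libraries in none of the comparisons (46 pairs, mean correlation 0.102); with them as a block the counts were 8 in MacLowKit-Sca1- against MacHigh cells, 2 in MacLowKit+Sca1+ against unsorted cells, 8 in MacLowKit+Sca1- against unsorted cells and 8 in MacHigh against unsorted cells. With library weights 8 were called in MacLowKit-Sca1- against MacHigh cells and 2 in MacLowKit+Sca1+ against unsorted cells. Without the libraries of prefix 26, an alternative chosen after seeing the data, as was that without prefix R, 3 were called in MacHigh against unsorted cells. With 1 library left out, the count was 2 to 7 in MacHigh against unsorted cells and 0 to 1 in MacLowKit-Sca1- against unsorted cells, and of the single differences 628 kept their side, 40 lost a call and 14 gained one. A pseudocount of 0.1 moved Atf3 to 3.84 in MacLowKit+Sca1+ against MacLowKit+Sca1- cells and to -2.44 in MacLowKit+Sca1- against MacLowKit-Sca1- cells, which follows from its low level. The cause of the other changes was not tested.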
